A study of Mus musculus with 32 samples.

Results

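AntimiR-34a was compared with scrambled antimiR in the lungs of mouse pups that breathed room air (21% O2) up to post-natal day (P)5, the time of the fastest normal alveolarization. The comparison covers 8 of the 32 mice of the series: 4 mice labelled antagomiR and 4 labelled scrambled, chosen by treatment, oxygen level and age alone. The sample labels give the age as P5.5. According to the methods these were C57Bl/6J pups of both sexes, injected intraperitoneally soon after birth with a locked nucleic acid oligonucleotide that was either directed against miR-34a or scrambled, so that both groups carried an injected oligonucleotide and neither was untreated. The pups were killed with pentobarbital, the lungs were flushed with saline through the heart, and RNA of the whole lung was hybridized to 1-colour Agilent arrays, 1 mouse per array. The kit for RNA isolation is miRNeasy in the sample labels but peqGOLD in the methods. The labels do not say which pups were littermates, and p-values measure only the spread between these mice. In whole-lung RNA, fewer cells of a type and less RNA per cell cannot be told apart. The scrambled mice in 85% O2 and at P14 are other mice, so the comparisons set beside this one share no control with it.

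miR-34a is a microRNA whose gene is switched on by p53, and it is best known for slowing the cell cycle and favouring cell death. Like other microRNAs it lowers the level or translation of messenger RNAs that pair with its seed, bases 2 to 8 counted from the 5′ end. An antimiR binds the microRNA and keeps it from its targets, so that targets would be derepressed where the microRNA is active. The methods give the antimiR against miR-34a, and the mature microRNAs below, from RefSeq (GRCm38.p6), are printed to show what it was made against and which relative shares that seed. The seed is in capitals.
mmu-miR-34a-5p: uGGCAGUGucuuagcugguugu
mmu-miR-34b-5p: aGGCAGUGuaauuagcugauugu
mmu-miR-34a-3p: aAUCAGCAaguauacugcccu

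miR-34a-5p lies on chromosome 4 (150068473 to 150068494, plus strand) and miR-34b-5p on chromosome 9 (51103610 to 51103632, minus strand). In the RefSeq table, 4 mature microRNAs carry the seed GGCAGUG, namely miR-34a-5p, miR-34b-5p, miR-449a-5p and miR-449c-5p. miR-34c-5p was not used here, so that this count may not cover the whole family. The passenger strand miR-34a-3p carries another seed. These arrays measure messenger RNA and long non-coding RNA, and the level of miR-34a itself was not measured here.

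The 4 scrambled arrays lay in row 1 and the 4 antimiR-34a arrays in row 2 of the same slide, so array row and treatment cannot be told apart. The scrambled arrays were brighter: their 75th percentile of log2 signal was 9.90 to 10.1, against 9.60 to 9.72 with antimiR-34a. Levels below are log2 signals from which that percentile was subtracted, so that 0 is the brightness of that percentile, and a level says nothing about 1 gene against another. Arrays of a group correlated at 0.994 to 0.996 with antimiR-34a and at 0.989 to 0.996 with scrambled antimiR. A probe was called where limma gave a Benjamini-Hochberg adjusted p under 0.05 over all tested probes.

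The groups also differed in make-up. The mean level of 4 genes of the Y chromosome (Ddx3y, Eif2s3y, Kdm5d and Uty) was -6.76, -5.75, -6.68 and -1.06 in antimiR-34a mice 1 to 4, and between -1.33 and -1.05 in the 4 scrambled mice. Xist, the RNA that silences 1 X chromosome in females, was at 1.69, 1.72, 1.72 and -2.32 in the antimiR-34a mice and between -8.65 and -8.00, not well above background, in the scrambled mice. The 3 antimiR-34a mice with low Y chromosome genes thus had high Xist, and antimiR-34a mouse 4 had a Y chromosome level like the scrambled mice together with Xist above background. Whether that library holds RNA of more than 1 mouse was not tested. In scrambled mouse 4 the mean of 6 skeletal muscle genes was 2.49, against -2.29 to -1.18 in the other 7 mice, and the mean of 5 stratified epithelium genes was 0.69, against -2.51 to -2.16 in the other scrambled mice. Scrambled mice 1 and 4 both had high heart muscle and airway genes, as given below. The part of sex, muscle, airway tissue and array brightness in the differences was not tested beyond the values set beside them.

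Of 35981 tested probes, 49 (0.136%) were called, 42 higher (0.117%) and 7 lower (0.0195%) with antimiR-34a. The changes were small. Their absolute log2 fold changes ran from 0.27 to 1.91 with a median of 0.54, 6 of the 49 passed 2-fold, and 24 had an adjusted p over 0.04. Without adjustment, 6266 probes (17.4%) had p under 0.05. Over all tested probes the median log2 fold change was 0.04 and 58.7% were higher with antimiR-34a. That lean towards higher values depended on the scaling. After quantile normalization the median over all tested probes was 0.00017, and 55 of 89 called probes (61.8%) were higher. In the authors' processed values 51 of 78 called probes (65.4%) were higher, against 42 of 49 (85.7%) here. With normexp background correction 337 called probes were higher and 29 lower, and with the 75th percentile over detected probes 23 and 4. The split also changed with the mice that were left out, as given below. The 4 mice of one group lay outside the range of the other group for all 49 called probes. Over all tested probes this was so for 10.8% with antimiR-34a higher and for 4.41% with antimiR-34a lower.

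Of the called probes, 33 carried a gene symbol and stood for 32 genes, 26 higher and 6 lower, and 8 of these had only a clone or predicted-gene name. The other 16 called probes had no symbol, lay at 13 loci with 3 pairs of neighbouring probes, and 15 of them were higher. Of these, 15 were probes for long intergenic non-coding RNAs. Over all 7946 tested probes of that kind, 5512 were higher and the median log2 fold change was 0.11. By what they are known to encode, the named genes fell into transcription factors, inhibitors and adaptors of receptor signalling, an extracellular signal and a receptor, DNA repair proteins, enzymes and G-protein signalling, and genes known chiefly from testis. This grouping was made after the values were seen.

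**Figure D1:**
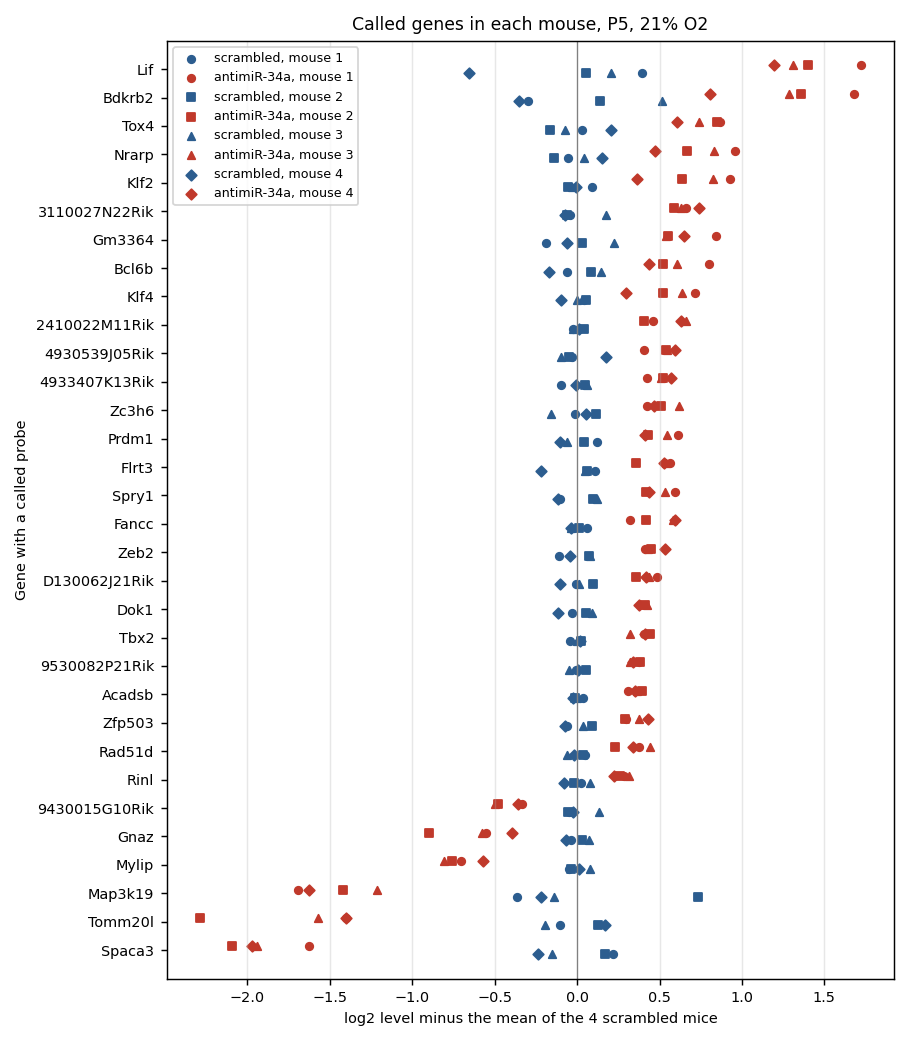
Level of each of the 32 called genes in each mouse, as log2 level minus the mean of the 4 scrambled mice (horizontal axis), with 1 symbol shape per mouse number, blue for scrambled antimiR and red for antimiR-34a. The red and blue symbols of a gene do not overlap, Lif and Bdkrb2 lie farthest to the right, with 3 and 1 of 4 scrambled arrays above background, and most of the other genes lie within 1 unit of 0.

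Klf2 and Klf4, Krüppel-like transcription factors that endothelial cells raise under shear stress and that also respond early to growth signals, both rose. Klf2 was at 4.74, 4.44, 4.63 and 4.17 in antimiR-34a mice 1 to 4 and at 3.90, 3.75, 3.78 and 3.80 in the scrambled mice. The lowest antimiR-34a mouse was above the highest scrambled mouse, and the log2 fold change was 0.69 (standard error 0.11, adjusted p = 0.0328). Klf4 was at 3.36, 3.16, 3.28 and 2.94 with antimiR-34a and at 2.68, 2.69, 2.64 and 2.55 with scrambled antimiR. Its log2 fold change was 0.54 (standard error 0.09, adjusted p = 0.0438), and as for Klf2, antimiR-34a mouse 4 was the lowest of its group. The Klf2 probe lies on chromosome 8 (74845137 to 74845196, plus strand) and the Klf4 probe on chromosome 4 (55540167 to 55540226, minus strand) of the mm9 build that the array annotation uses. With 1 array left out in turn, Klf2 stayed called in 2 of 8 fits and Klf4 in 1 of 8, with log2 fold changes of 0.61 to 0.80 and 0.48 to 0.62.

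Bcl6b, a transcriptional repressor related to BCL6, was at 1.57, 1.29, 1.37 and 1.20 with antimiR-34a and at 0.70, 0.85, 0.91 and 0.60 with scrambled antimiR (log2 fold change 0.59, standard error 0.10, adjusted p = 0.0438). Prdm1, the repressor also called Blimp-1, was at 0.63, 0.44, 0.56 and 0.42 against 0.13, 0.05, -0.05 and -0.09 (log2 fold change 0.50, standard error 0.09, adjusted p = 0.0438). In both genes the groups did not overlap. Zeb2, a repressor known from epithelial-to-mesenchymal transition, was at -0.98, -0.95, -0.96 and -0.86 against -1.5, -1.32, -1.32 and -1.44 (log2 fold change 0.46, standard error 0.07, adjusted p = 0.0317). Its other tested probe rose by 0.11 and was not called. The clone-named transcript 3110027N22Rik rose as well, by 0.65 (standard error 0.10, adjusted p = 0.0317). Its probe lies on the same strand of chromosome 2 as that of Zeb2, 7475 bases apart, and whether both probes read the same transcript was not tested. Tbx2, a T-box factor of lung mesenchyme, rose by 0.39 (adjusted p = 0.0438), with 4.80 to 4.92 in the antimiR-34a mice and 4.43 to 4.50 in the scrambled mice. Zfp503, a zinc finger corepressor, rose by 0.35 (adjusted p = 0.0438). Tox4, an HMG-box protein, had a log2 fold change of 0.77 (adjusted p = 0.0288) on the called probe, but its other tested probe had the opposite direction.

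Several of the genes that rose are known to hold receptor signalling in check. Nrarp, which is switched on by Notch and then dampens it, was at 0.14, -0.15, 0.02 and -0.34 with antimiR-34a and at -0.87, -0.95, -0.77 and -0.66 with scrambled antimiR. The groups were separated, and the log2 fold change was 0.73 (standard error 0.11, adjusted p = 0.0317). Spry1, an inhibitor of signalling from fibroblast growth factor and other tyrosine kinase receptors, was at 4.10, 3.93, 4.04 and 3.94 against 3.40, 3.60, 3.63 and 3.39. It rose by 0.50 (standard error 0.08, adjusted p = 0.0317). Flrt3, a membrane protein that binds fibroblast growth factor receptors and axon guidance receptors, rose by 0.50 and 0.49 on 2 of its 3 tested probes (adjusted p = 0.0402 and 0.0438), and the remaining probe had the same direction. Dok1, a docking protein that attenuates tyrosine kinase signals, was at 1.36 to 1.41 with antimiR-34a and at 0.87 to 1.08 with scrambled antimiR (log2 fold change 0.40, adjusted p = 0.0438). Rinl, a Ras and Rab interactor-like protein, had the smallest change of all called probes, 0.27 (adjusted p = 0.0494).

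The largest changes among the named genes that rose were in dim probes. Lif, a cytokine of the interleukin-6 family, was at -4.12, -4.44, -4.54 and -4.65 with antimiR-34a and at -5.45, -5.79, -5.64 and -6.50 with scrambled antimiR, where 3 of 4 arrays were above background. Its log2 fold change was 1.41 (standard error 0.25, adjusted p = 0.0447). Bdkrb2, the bradykinin B2 receptor, was at -4.77, -5.09, -5.16 and -5.64 against -6.74, -6.31, -5.93 and -6.80, and was above background on 4 antimiR-34a arrays but on 1 of 4 scrambled arrays. Its log2 fold change was 1.28 (standard error 0.22, adjusted p = 0.0438). Both signals lay near the floor of the array in the scrambled group, and the size of their change depends on values that were only partly measured.

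Of genes that act in DNA repair, Fancc, a subunit of the Fanconi anaemia core complex, rose by 0.48 (adjusted p = 0.0288). Its other tested probe rose by 0.15 and was not called. Rad51d, a protein of homologous recombination, rose by 0.35 (adjusted p = 0.0438) on the called probe, while its other tested probe had the opposite direction. Acadsb, a mitochondrial acyl-CoA dehydrogenase of branched-chain amino acid breakdown, rose by 0.35 (adjusted p = 0.0331), and its other probe too ran the other way. Zc3h6, a CCCH zinc finger protein, rose by 0.50 (adjusted p = 0.0476), with 2 of 2 other probes in the same direction but not called. The clone-named and predicted genes 2410022M11Rik (0.54, adjusted p = 0.0159), Gm3364 (0.65, 0.0438), 4930539J05Rik (0.52, 0.0399), 4933407K13Rik (0.51, 0.0349), D130062J21Rik (0.42, 0.0271) and 9530082P21Rik (0.36, 0.0288) rose by the log2 amounts given.

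The promoters of 18 of the 26 genes that rose are in the RefSeq table (GRCm38.p6), and the 250 bases before the start were searched on both strands. The stretches below belong to called genes described above, whose calls were each lost in at least 6 of the 8 fits with 1 mouse left out, and are shown for the motif they hold: Klf2, Klf4 and Nrarp, with the GC box GGGCGG in capitals, and Lif and Prdm1, with the AP-1 motif TGANTCA in capitals.
Klf2: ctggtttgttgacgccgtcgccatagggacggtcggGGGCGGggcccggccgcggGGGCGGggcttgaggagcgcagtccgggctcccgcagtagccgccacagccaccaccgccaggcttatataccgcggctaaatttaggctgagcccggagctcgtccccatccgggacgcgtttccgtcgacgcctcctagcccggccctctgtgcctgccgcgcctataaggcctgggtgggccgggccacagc
Klf4: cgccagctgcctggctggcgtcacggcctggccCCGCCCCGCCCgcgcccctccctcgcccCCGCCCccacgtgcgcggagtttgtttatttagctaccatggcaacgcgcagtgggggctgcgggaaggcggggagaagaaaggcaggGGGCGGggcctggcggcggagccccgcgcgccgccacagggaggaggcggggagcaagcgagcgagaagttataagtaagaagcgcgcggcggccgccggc
Nrarp: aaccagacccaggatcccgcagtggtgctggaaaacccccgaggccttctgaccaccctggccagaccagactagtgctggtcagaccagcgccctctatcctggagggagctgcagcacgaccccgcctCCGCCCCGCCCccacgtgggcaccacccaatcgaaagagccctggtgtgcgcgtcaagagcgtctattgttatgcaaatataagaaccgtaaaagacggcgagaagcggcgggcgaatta
Lif: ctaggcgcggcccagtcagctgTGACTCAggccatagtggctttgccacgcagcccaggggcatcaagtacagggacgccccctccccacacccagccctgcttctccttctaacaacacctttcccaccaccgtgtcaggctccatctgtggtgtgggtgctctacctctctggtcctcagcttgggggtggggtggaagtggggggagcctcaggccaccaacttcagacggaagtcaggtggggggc
Prdm1: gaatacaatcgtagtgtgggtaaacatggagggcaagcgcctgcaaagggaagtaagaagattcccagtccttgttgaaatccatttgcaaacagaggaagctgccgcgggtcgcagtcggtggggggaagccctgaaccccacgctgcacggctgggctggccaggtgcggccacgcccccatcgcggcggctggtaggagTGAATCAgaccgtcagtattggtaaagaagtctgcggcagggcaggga

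Each runs 5′ to 3′ towards the start of its gene, at chr8:72318812-72319061 (plus strand) for Klf2, chr4:55532476-55532725 (minus) for Klf4, chr2:25180508-25180757 (plus) for Nrarp, chr11:4257318-4257567 (plus) for Lif and chr10:44458749-44458998 (minus) for Prdm1. The GC box was in 10 of the 18 promoters (55.6%), against 35.4% of the promoters of all 27025 genes. The AP-1 motif, bound by Fos and Jun dimers, was in 4 (22.2%, those of Acadsb, Lif, Prdm1 and Zeb2) against 7.82%. The RBPJ motif TGGGAA, through which Notch acts, was in 4 (22.2%) against 24.1%, and the cAMP response element TGACGTCA was in 0 against 1.77%. The CArG box, bound by serum response factor, was in 0 against 1.62%. These are matches of letters in promoters of chosen genes and were not tested.

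Of the 6 named genes that were lower, Mylip was called in every fit with 1 mouse left out and was above background on all arrays. It encodes the ubiquitin ligase also called IDOL, which degrades the receptor for low-density lipoprotein. Mylip was at -5.20, -5.26, -5.31 and -5.07 with antimiR-34a and at -4.55, -4.53, -4.42 and -4.49 with scrambled antimiR, above background on all 8 arrays. It fell by 0.71 (standard error 0.08, adjusted p = 0.00444). Its other tested probe had a log2 fold change of -0.14 and was not called. The Mylip call was lost after normexp background correction and by the t-test of the methods (adjusted p = 0.101). It was also lost in limma with a covariate for Y chromosome genes (adjusted p = 0.0767) or for the club and secretory cell level. The signal was dim. The probe lies on chromosome 13 (45503808 to 45503867, plus strand, mm9). The call held in all 8 fits with 1 array left out, at -0.76 to -0.68.

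Map3k19, a kinase of the MAP kinase kinase kinase family, was at -5.68, -5.40, -5.20 and -5.61 against -4.35, -3.25, -4.12 and -4.20 (log2 fold change -1.49, standard error 0.21, adjusted p = 0.0231), but its other tested probe had the opposite direction. Gnaz, an inhibitory G-protein alpha subunit, was at -4.89, -5.24, -4.91 and -4.73 against -4.37, -4.31, -4.26 and -4.40 (log2 fold change -0.61, adjusted p = 0.0438), again with the other probe in the opposite direction. The transcript 9430015G10Rik had a log2 fold change of -0.42 (adjusted p = 0.0494). Spaca3, a lysozyme-like protein of the sperm acrosome, was at -7.49, -7.96, -7.81 and -7.84 with antimiR-34a, not well above background on any of these arrays, and at -5.65, -5.70, -6.02 and -6.10 with scrambled antimiR, above background on 2 of 4. It was at least 1.03-fold lower (adjusted p = 7.08e-05), a bound that was under 1 without scrambled mouse 1 or 2, so that no fold can be given there, and after normexp background correction its log2 difference was 0.024, in the opposite direction. Tomm20l, a relative of the mitochondrial import receptor TOMM20, passed background in 4 of 4 scrambled mice and in 0 of 4 antimiR-34a mice, and was at least 1.44-fold lower (adjusted p = 0.0198), with its other tested probe in the opposite direction. These bounds set each antimiR-34a array at its own detection limit, the lowest signal among its probes that passed background.

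The calls rested on single mice to a large extent. With 1 scrambled mouse left out, 6 (mouse 1), 9 (mouse 2), 88 (mouse 3) and 8 (mouse 4) probes were called, of which 5, 8, 36 and 8 were among the 49. With 1 antimiR-34a mouse left out, 9, 5, 5 and 13 were called, of which 8, 5, 4 and 11 were among the 49. Mylip and a probe without a symbol on chromosome 7 (66576716 to 66576775, log2 fold change 0.57), both above background on all 8 arrays, were called in all 8 such fits. Spaca3 was too, but on values that were above background on 2 of the 8 arrays. 2410022M11Rik was called in 6 fits, Map3k19 in 5, Tomm20l and a probe without a symbol in 4, and Tox4 in 3. Of the rest, 8 probes were called in 2 fits, 23 in 1 and 10 in 0. The named genes called in 0 fits were Prdm1, Tbx2, Rad51d, Zc3h6, 4930539J05Rik, Gnaz and 9430015G10Rik. 2410022M11Rik lost its call without scrambled mouse 1 or antimiR-34a mouse 3, and Map3k19 without antimiR-34a mouse 1, 2 or 4. The called probes were 2 higher and 4 lower without scrambled mouse 1, and 4 and 5 without mouse 2. They were 43 and 45 without scrambled mouse 3, and 5 and 3 without mouse 4. Without antimiR-34a mice 1 to 4 in turn they were 6 and 3, 2 and 3, 2 and 3, and 9 and 4. With scrambled mice 1 and 4 both left out, a choice made after seeing the data, 1 was higher and 8 lower.

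With a covariate for Y chromosome genes, 1 probe was called, Spaca3. With skeletal muscle level as a covariate 7 probes were called, and with the 75th percentile as a covariate 15, of which 11 were among the 49. With the club and secretory cell level as a covariate, a choice made after seeing the data, Spaca3 alone was called. The t-test of the methods, after Benjamini-Hochberg adjustment, called 1 probe, which was not among the 49 (6644 with unadjusted p under 0.05). Array weights gave 870 calls with all 49 among them, a fit of the 8 arrays alone gave 396, with 44 of the 49, and the replicate block gave 7. All 49 log2 differences kept their direction with the Y chromosome, skeletal muscle or brightness covariate and under array weights.

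**Figure D2:**
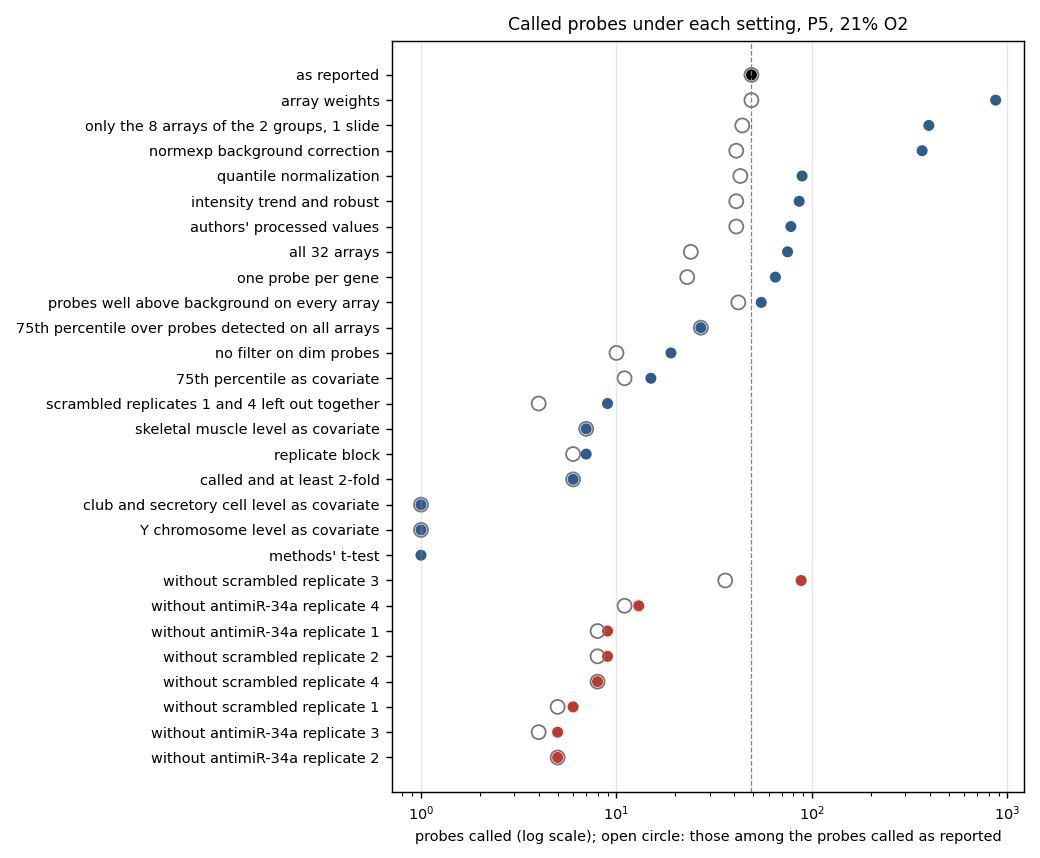
Number of called probes in the comparison at P5 in 21% O2 under each setting (filled circles, logarithmic axis; black as reported, blue other settings, red with 1 mouse left out), and how many of them are among the 49 reported (open circles, not drawn at 0). Counts run from 1 with the Y chromosome or secretory level as a covariate or the t-test of the methods to 870 with array weights, and 7 of the 8 fits with 1 mouse left out gave between 5 and 13 calls.

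In 85% O2 at P5 and in 21% O2 at P14, the settings compared here, the called probes had the same sign about as often as the opposite one and medians near 0. In 85% O2 at P5, 22 of the 42 probes that rose and 5 of the 7 that fell had the same sign, and their median log2 fold changes there were 0.01 and -0.02. Of 35981 probes 23 (0.0639%) were called in 85% O2, and 0 of these were among the 49. In 21% O2 at P14, 21 of the 42 and 3 of the 7 had the same sign, with medians of -0.02 and 0.03, and 1 of 39159 probes (0.00255%) was called. Array brightness varied within these P14 groups. The 75th percentile of log2 signal was 9.34 in scrambled mouse 4 and 10.1 to 10.2 in the other scrambled mice. It was 10.2 in antimiR-34a mouse 1 and 9.56 to 9.64 in the others of that group. The part of brightness in the P14 values was not tested.

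The difference of the antimiR-34a effect between 21% and 85% O2 was called for 20 probes (0.0556% of those tested), and 16 of them were higher in 21% O2. The count was 0 by the t-test of the methods (3331 with unadjusted p under 0.05) and by limma with the secretory covariate (2328), 4 with the replicate block, 6 with the Y chromosome covariate, 7 without scrambled mice 1 and 4 and 9 without antimiR-34a mouse 3. Nrarp had log2 fold changes of 0.73 in 21% O2 and -0.46 in 85% O2, a difference of 1.20 (standard error 0.16, adjusted p = 0.0124). Prdm1 had 0.50 and -0.42 (difference 0.92, adjusted p = 0.0124), and Spry1 0.50 and -0.28 (difference 0.78, adjusted p = 0.0172). Acadsb, 4930539J05Rik and D130062J21Rik differed in the same way, by 0.59, 0.83 and 0.53 (adjusted p = 0.0172, 0.0174 and 0.0387). None of these 6 was called in 85% O2 itself. Spaca3 was among the 20 as well, but its probe was above background on 2 of 8 arrays in 21% O2 and on 8 of 8 in 85% O2, through which it entered the fit, so that its difference rests on values that were mostly not measured. Chosen after their values were seen, Maff, a small Maf transcription factor, differed by 0.80 (0.30 and -0.49, adjusted p = 0.00578), Dusp4, a phosphatase of MAP kinases, by 0.74 (0.34 and -0.40, adjusted p = 0.0127), and Has2, a hyaluronan synthase, by 1.37 (0.51 and -0.86, adjusted p = 0.0174). Maff and Has2 were also called in 85% O2 (adjusted p = 0.0156 and 0.0448). Each setting lay on a slide of its own, so that slide and setting cannot be told apart.

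The difference between P5 and P14 in 21% O2 was called for 21 of 39159 probes (0.0536%), 19 of them higher at P5. These included Klf2, with log2 fold changes of 0.69 at P5 and -0.26 at P14 (difference 0.94, adjusted p = 0.0448), Spry1 (0.50 and -0.09), Zc3h6 (0.50 and -0.26), 3110027N22Rik (0.65 and -0.07) and Rad51d (0.35 and -0.12), with the same adjusted p. Cirbp, the cold-inducible RNA-binding protein, chosen after its values were seen, had 0.30 and -0.69 (difference 0.99, adjusted p = 0.00557). With 1 mouse left out the count was 1 to 3 in 13 of 16 fits, 17 without scrambled mouse 2 at P5, 281 without antimiR-34a mouse 1 at P14 and 556 without scrambled mouse 4 at P14. Both of these P14 mice differed in array brightness from the others of their group, as given above.

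**Figure D3:**
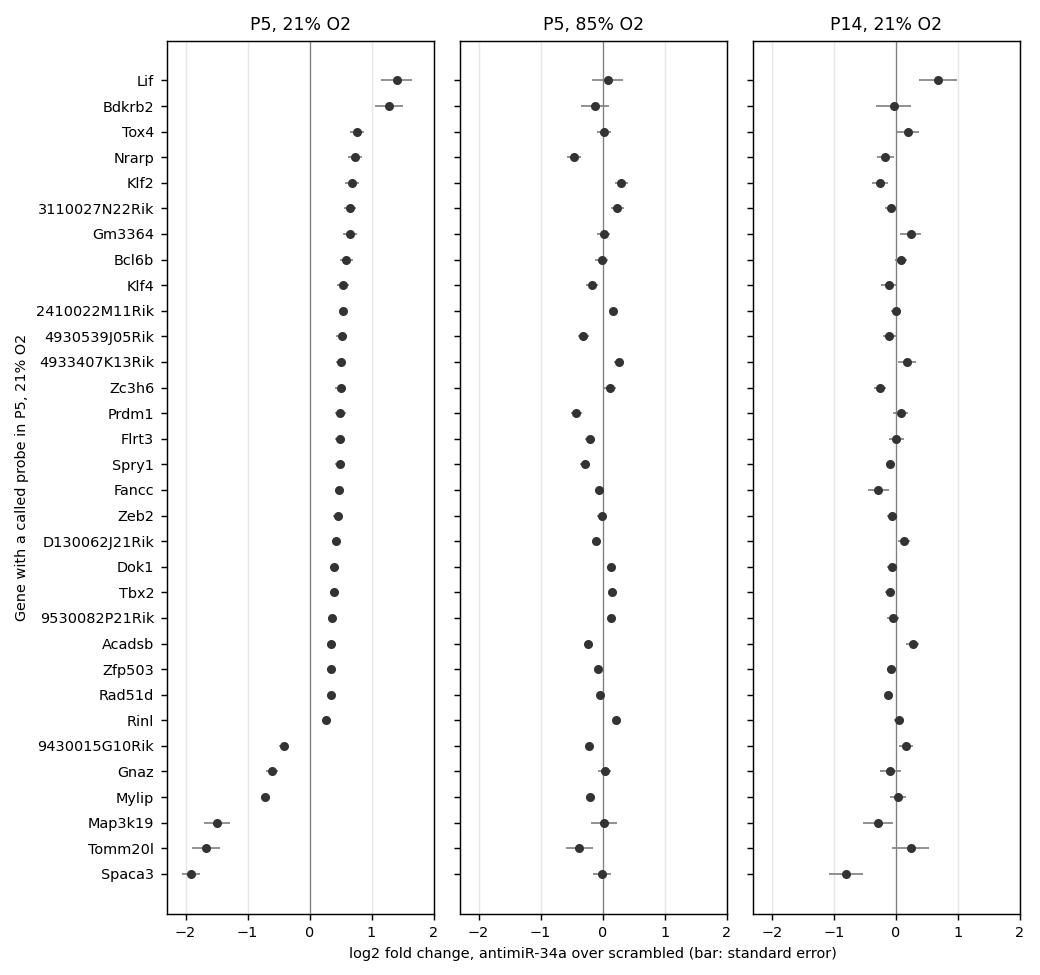
Log2 fold change of antimiR-34a over scrambled antimiR (horizontal axis, bars standard errors) for the 32 called genes at P5 in 21% O2, P5 in 85% O2 and P14 in 21% O2. The genes that spread to either side in the first panel mostly lie nearer 0 in the others, with Nrarp at 0.73, -0.46 and -0.17. At P14 the fitted values of Lif (0.68) and Spaca3 (-0.80) lie away from 0, on the same side as at P5. The values of Spaca3 and Tomm20l in the first panel are fitted values with 0 antimiR-34a arrays above background.

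Immediate early genes, which cells switch on within minutes of a stimulus, leaned in 1 direction. Of 20 listed, 19 were tested and all 19 were higher with antimiR-34a (18 after quantile normalization), with a median log2 fold change of 0.30 against 0.04 over all probes. Klf2 and Klf4 were called, where 0.117% of all probes were called higher. The list was written with earlier results of these data known, so its counts are a description only. In 9 the unadjusted p was under 0.05, against 17.4% of all probes, and in 9 the groups did not overlap, against 10.8% of all probes with antimiR-34a higher. In other members, chosen after their values were seen, Nr4a1, an orphan nuclear receptor, was at 4.26, 3.74, 4.26 and 3.1 with antimiR-34a and at 2.93, 3.04, 2.74 and 3.09 with scrambled antimiR, a log2 fold change of 0.89 (adjusted p = 0.153). Dusp1, a phosphatase of MAP kinases, was at 2.55, 2.13, 2.31 and 1.68 against 1.28, 1.35, 1.40 and 1.57 (0.77, adjusted p = 0.114). Egr1, a zinc finger factor, was at 2.45, 2.07, 2.50 and 1.37 against 1.03, 1.14, 1.03 and 1.95 (0.81, adjusted p = 0.201), and here the groups overlapped. Fos, Fosb and Junb had 0.14, 0.06 and 0.01.

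The mean level of the list was 1.01, 0.88, 1.05 and 0.59 in antimiR-34a mice 1 to 4 and 0.51, 0.43, 0.51 and 0.61 in the scrambled mice, so that antimiR-34a mouse 4, the library with both Y chromosome genes and Xist, lay within the scrambled range. In 85% O2, 6 of the 19 were higher with antimiR-34a and the median was -0.17. At P14 in 21% O2, 1 was higher and the median was -0.15. Without scrambled mice 1 and 4 (a choice made after seeing the data), all 19 were still higher at P5 in 21% O2, with a median of 0.31. The GC box was in 14 of the 15 promoters of these genes in the table (93.3%), against 35.4% of all genes. The cAMP response element was in 3 (20%) against 1.77%, the CArG box in 2 (13.3%) against 1.62%, the RBPJ motif in 2 (13.3%) against 24.1%, and the AP-1 motif in 0 against 7.82%. The order in which the mice were killed and the delay to freezing are not given in the sources used here.

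**Figure D4:**
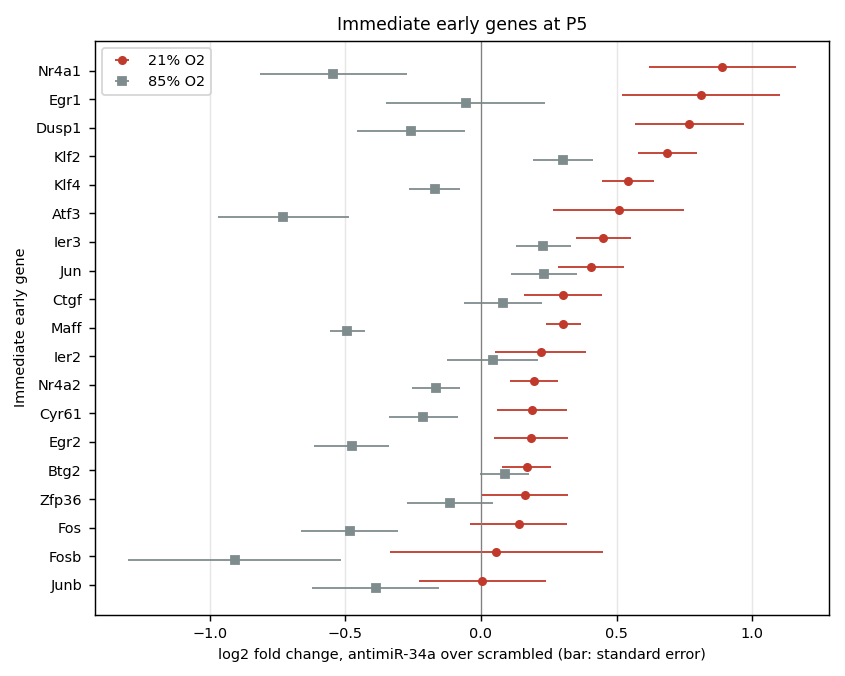
Log2 fold change of antimiR-34a over scrambled antimiR at P5 (horizontal axis, bars standard errors) for 19 immediate early genes in 21% O2 (red circles) and 85% O2 (grey squares). All 19 red circles lie above 0, from 0.01 for Junb to 0.89 for Nr4a1, and 6 of the grey squares do.

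Genes reported as targets of miR-34a, a list of 30 written from general knowledge, were not called. Of 29 tested, 20 were higher with antimiR-34a, the median log2 fold change was 0.09, 0 were called by limma and 4 had an unadjusted p under 0.05. Without scrambled mice 1 and 4 the median was -0.02 with 13 higher. Notch1, the receptor upstream of Nrarp, was at 1.36, 1.32, 1.52 and 0.95 with antimiR-34a and at 0.40, -0.18, 0.49 and 0.61 with scrambled antimiR. The groups did not overlap, and the log2 fold change of 0.96 (standard error 0.32) had an adjusted p of 0.180. Dll1, a Notch ligand, had 0.32 (adjusted p = 0.185), and E2f5, a cell cycle factor that was chosen after its value was seen, -0.29 (adjusted p = 0.173). Of the tested probes, 183 held the 7 bases CACTGCC that pair with the seed. Of these, 113 (61.8%) were higher with a median of 0.04, against 58.7% and 0.04 over all tested probes, and 0 were called. A probe covers a short part of a transcript, and targets were not predicted here.

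The genes that the study follows in its cell and tissue work were not called either. Pdgfra, the receptor that marks alveolar myofibroblast precursors, was at 2.00, 2.06, 2.02 and 1.99 with antimiR-34a and at 1.93, 2.06, 2.09 and 1.95 with scrambled antimiR, and the groups overlapped (log2 fold change 0.01, adjusted p = 0.959). Its ligand Pdgfa had 0.05, Kit 0.16 and Sirt1 0.04. Acta2 (smooth muscle actin) had -0.13, Eln (elastin) -0.09, Aqp5 (a water channel of type I pneumocytes) 0.11 and Mki67 (a proliferation marker) 0.03. The signs of Pdgfra, Pdgfa and Mki67 turned after quantile normalization. Sftpc, a surfactant protein of type II pneumocytes, was at 8.66 to 8.78 with antimiR-34a and at 8.37 to 8.59 with scrambled antimiR (0.25, adjusted p = 0.289), and this difference was -0.019 after quantile normalization. Of genes used as references, Polr2a had 0.07, Actb 0.21 (adjusted p = 0.370) and Gapdh -0.20 (adjusted p = 0.258). The groups did not overlap for Actb and Gapdh, and Actb had -0.047 after quantile normalization. Gapdh was at 6.87 in scrambled mouse 4 and at 6.44 to 6.46 in the other scrambled mice.

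The lists for endothelium, lipofibroblasts, PDGFRα+ myofibroblasts and both pneumocyte types had 10 marker genes each, and all were well above background on all 8 arrays. All 10 type I pneumocyte genes were higher with antimiR-34a, with a median of 0.13, list means of 3.89 to 3.94 against 3.65 to 3.85, 0 called and 3 with an unadjusted p under 0.05. Of the type II pneumocyte, PDGFRα+ myofibroblast, lipofibroblast and endothelial lists, 8, 6, 6 and 6 of 10 were higher (5, 5, 6 and 6 after quantile normalization) with medians of 0.12, 0.07, 0.11 and 0.09, and 0 were called by limma, with 1, 2, 4 and 4 at an unadjusted p under 0.05. Wnt2, a Wnt ligand of lung mesenchyme on the lipofibroblast list, was at 0.29, 0.64, 0.68 and 0.48 against -0.33, 0.08, -0.13 and -0.37 (log2 fold change 0.71, adjusted p = 0.0909). Hhip, which binds Hedgehog, had 0.34 (adjusted p = 0.170), and Cldn5, an endothelial tight junction protein, 0.33 (adjusted p = 0.131). The elastin assembly list had 5 of 10 higher (median -0.01), the collagen list 3 of 10 (-0.11), the p53 target list 6 of 10 (0.03) and the proliferation list 2 of 9 (-0.12), with 0 called and 1, 4, 2 and 0 at an unadjusted p under 0.05. Of the p53 targets, Cdkn1a, a brake on the cell cycle, had -0.42 (adjusted p = 0.196) and was at 0.94 in scrambled mouse 4 against 0.02 to 0.26 in the other scrambled mice. Interferon-stimulated genes were higher in 13 of 15, with a median of 0.18, 0 called and 6 with an unadjusted p under 0.05. Of these, Ifi44 had 0.48 (adjusted p = 0.0856) and Mx1, an antiviral GTPase, 0.39 (adjusted p = 0.199). In 85% O2, 4 of the 15 were higher.

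Among airway secretory genes, Reg3g, Scgb3a1 and Muc5b had log2 differences of -5.95, -4.33 and -4.01, Bpifa1 has a bound given below, the other 6 listed genes were within 1 unit of 0, and none of the 10 was called by limma. Scgb3a1, a secretoglobin, was at -2.15, -0.87, -0.58 and -1.20 with antimiR-34a and at 5.12, 2.26, 0.25 and 4.88 with scrambled antimiR. Muc5b, a gel-forming mucin, was at -3.43, -3.39, -3.19 and -3.12 against 2.67, -0.30, -1.84 and 2.36. Both were chosen after their values were seen. Without scrambled mice 1 and 4 the log2 differences of Reg3g, Scgb3a1 and Muc5b were -4.00, -2.45 and -2.22. Of 10 genes of club and secretory cells, 9 were lower with antimiR-34a with a median log2 fold change of -0.83, 6 had an unadjusted p under 0.05, against 17.4% of all probes, and in 5 the groups did not overlap, against 4.41% of all probes with antimiR-34a lower. Reg3g, an antimicrobial lectin, was at -7.29, -4.37, -3.87 and -4.84 with antimiR-34a and at 3.03, 0.07, -2.25 and 2.58 with scrambled antimiR (log2 fold change -5.95, standard error 1.24, adjusted p = 0.0669), above background on 3 of 4 antimiR-34a arrays. Bpifa1, a secreted protein of the upper airway, was not well above background on any antimiR-34a array and was at -0.34, -3.17, -5.21 and 0.00 in the scrambled mice, at least 13.2-fold higher there (adjusted p = 0.0596). This bound was 8.63-fold without scrambled mouse 1, 7.97-fold without mouse 4, 26.6-fold without mouse 3 and 3.28-fold without mice 1 and 4. The scrambled mice themselves ranged over more than 5 log2 units in Reg3g and in Bpifa1. Scgb1a1, the defining protein of club cells, named after its values were seen, had 0.16. Its sign turned after quantile normalization, where 0 of the 10 genes were higher.

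The mean of the secretory list was 3.02, 1.42, 0.57 and 2.93 in scrambled mice 1 to 4 and -0.66, -0.01, 0.00 and -0.03 with antimiR-34a, so that scrambled mice 1 and 4 were highest. All 10 ciliated cell genes (median -0.31) and all 8 heart muscle genes (median -0.53) were lower with antimiR-34a, and the heart muscle list was at 3.44, 1.75, 1.31 and 3.28 in the scrambled mice. In these lists 0 were called, and 2 and 0 had an unadjusted p under 0.05. Without scrambled mice 1 and 4 the medians were -0.15 for secretory, 0.02 for ciliated and 0.31 for heart muscle genes. In 85% O2 at P5 the medians were 0.04, 0.05 and 0.33. In 21% O2 at P14 they were -0.46, -0.15 and -0.25, with 1, 3 and 1 genes higher, so these lists leaned the same way there. The nerve and glia list (5 of 8 lower, median -0.23), the stratified epithelium list (4 of 5 lower, -0.79) and the skeletal muscle list (5 of 6 lower, -1.29) had medians of 0.04, 0.17 and 0.16 without those mice. The mesothelial list (8 of 8 lower, median -0.70) and the platelet list (10 of 10 lower, -0.26) kept medians of -0.62 and -0.34. Wt1, a transcription factor of mesothelium chosen after its values were seen, was at -3.81, -2.13, -1.33 and -4.10 with antimiR-34a and at -1.85 to -1.13 with scrambled antimiR, so that antimiR-34a mice 1 and 4 were low. The part of sampled airway, heart and pleural tissue in the other differences was not tested.

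**Figure D5:**
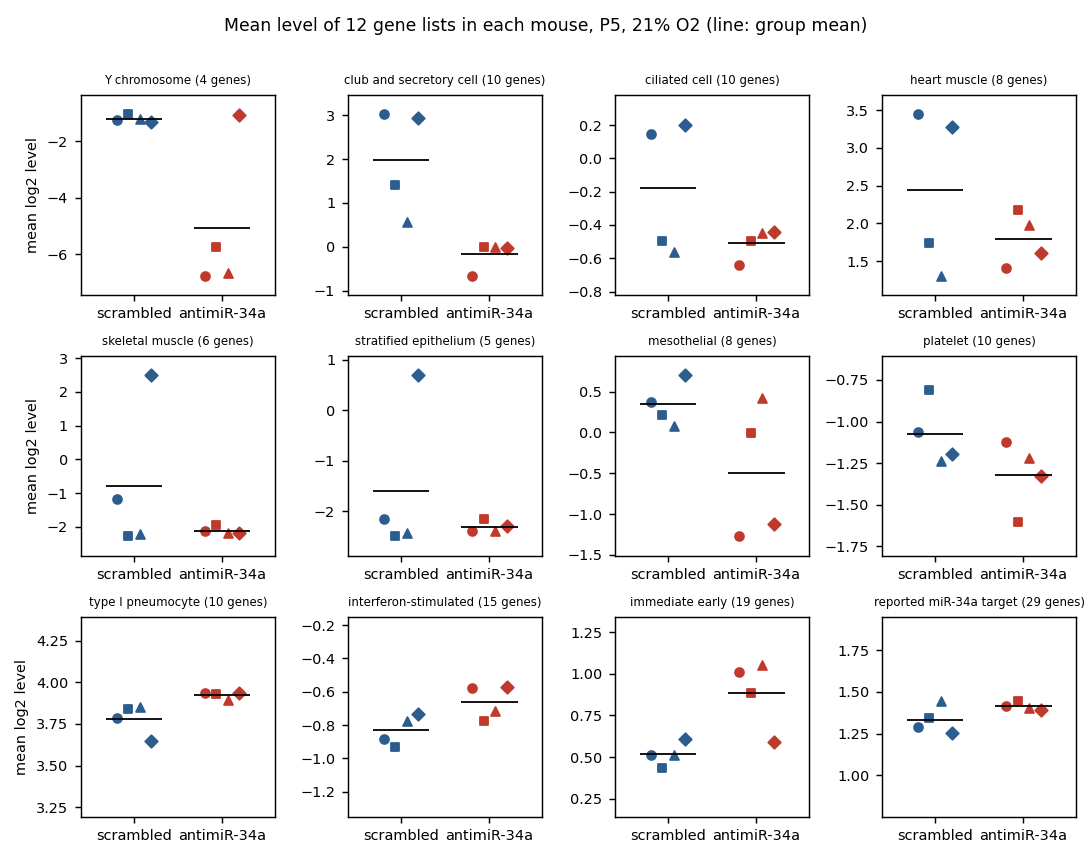
Mean log2 level of 12 gene lists in each mouse (vertical axes, each panel with its own range; blue scrambled antimiR, red antimiR-34a, 1 symbol shape per mouse number, line the group mean). Y chromosome genes are low in 3 of the 4 antimiR-34a mice, skeletal muscle and stratified epithelium genes are highest in scrambled mouse 4, and secretory, ciliated and heart muscle genes are high in scrambled mice 1 and 4.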

How the data were processed

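Lung RNA of 32 mice, 4 in each of 8 groups, was hybridized to 1-colour Agilent SurePrint G3 Mouse arrays, 8 per slide on 4 slides. The spot intensity used was the processed signal that the authors deposited per array, which is background-subtracted per the file headers and was made with Agilent Feature Extraction 10.7.3.1. The authors also deposited a table of log2 values, used as an alternative. Control spots and outlier-flagged spots were left out, spots of the same probe were averaged, and each log2 intensity was taken relative to the 75th percentile of its array. Array number, not read depth, limits the precision.

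A probe entered the fit where every array of some group had it well above background. The 16 arrays at P5 were fitted with limma 3.58.1 (lmFit, eBayes; R 4.3.3), and the age comparison with all 32, with Benjamini-Hochberg adjustment at 0.05 over all tested probes. Groups came from the sample labels. The named genes are those with a called probe, the 12 genes that the study follows or uses as references, and, from 40 gene lists, called members or otherwise up to 2 with the largest difference. A gene takes its called probe with the smallest p. The members and lists were chosen with earlier results of these data known. There were 18 other settings, and each mouse was left out in turn. The secretory covariate and leaving out scrambled mice 1 and 4 were settings chosen after seeing the data. The steps were tested on simulated data. Gene symbols are those of the array annotation (mm9 positions), and sequences are from RefSeq (GRCm38.p6).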

Additional observations from a re-analysis of the deposited data

Results flagged for a closer look

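In 9 of 170 groups of 4 values, 1 mouse lay far from the other 3 of its group, where chance gives about 1 in 20 groups. Gapdh was at 6.28 in antimiR-34a mouse 4, against 6.37 in the others, and at 6.87 in scrambled mouse 4, against 6.44 to 6.46. The stratified epithelium list was at 0.69 in scrambled mouse 4 (others -2.51 to -2.16), and the secretory list at -0.66 in antimiR-34a mouse 1 (others -0.03 to 0.00). In scrambled mouse 3, 3110027N22Rik was at -0.76 (others -1.01 to -0.98) and 9430015G10Rik at -1.90 (others -2.08 to -2.05). In antimiR-34a mouse 3 the type I pneumocyte list was at 3.89 (others 3.93 to 3.94) and the 75th percentile of the array at 9.60 (others 9.71 to 9.72). The cold-inducible list was at 4.52 in antimiR-34a mouse 1 (others 4.60 to 4.61).

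The effect of antimiR-34a in 21% O2 differed from that in 85% O2 at P5, by limma with adjusted p under 0.05, for Nrarp (1.20), Prdm1 (0.92), 4930539J05Rik (0.83), Spry1 (0.78), Acadsb (0.59), D130062J21Rik (0.53) and Spaca3, where the fitted difference of -1.90 is no bound, as 2 of 8 arrays in 21% O2 were above background. The effect at P5 in 21% O2 differed from that at P14 for Klf2 (0.94), Zc3h6 (0.76), 3110027N22Rik (0.73), Spry1 (0.58) and Rad51d (0.47).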

How the results depend on the processing

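The count of 49 called probes at P5 in 21% O2 was about 3.7e+02 with normexp background correction (337 higher and 29 lower), 89 after quantile normalization, 27 with the 75th percentile over detected probes, 78 in the authors' values, 19 with no filter on dim probes, 870 with array weights, 86 with an intensity trend, 396 from the 8 arrays alone, 75 from all 32 arrays and 6 at 2-fold or more. It was 1, 7 and 15 with the Y chromosome, skeletal muscle and 75th percentile covariates, 1 by the t-test of the methods, 1 with the secretory covariate, 9 without scrambled mice 1 and 4, and 5 to 88 with 1 mouse left out. Only 55 with the filter on every array and 65 with 1 probe per gene lay within 1.5 times.

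The 20 probes that differed between oxygen levels became 31 with the filter on every array, 63 with array weights, 6 and 48 with the Y chromosome and 75th percentile covariates, 34 with an intensity trend, 7 without scrambled mice 1 and 4, 5 at 2-fold or more, and 9 to 28 with 1 mouse left out. By the t-test of the methods there were 0 (3331 with unadjusted p under 0.05) and by limma with the secretory covariate 0 (2328). The 21 probes that differed between ages became 1 with normexp, the detected-probe percentile, no filter, the t-test or the skeletal muscle covariate, 6016 with array weights, 2 and 346 with the Y chromosome and 75th percentile covariates, 0 by limma with the secretory covariate (4728 with unadjusted p under 0.05), 3 without scrambled mice 1 and 4, 2 at 2-fold or more, and 1 to 556 with 1 mouse left out.

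Mice with the same replicate number did not deviate together at P5 in 21% O2 (correlations -0.0613 to 0.0121), so the numbers pair nothing. With the replicate block 7 probes were called in this comparison, 4 for the oxygen difference and 1 for the age difference.

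Over the 32 called genes and the 12 genes that the study follows or uses as references, 576 values kept direction and side of the threshold. Another 473 lost the call and 44 reversed. The 12 genes were not called as reported, so they could not lose a call and make up part of the 576. By the t-test of the methods all 32 called genes lost the call. Other members of the gene lists were not included in these counts. Spaca3 reversed with normexp (0.024), and the other reversals were in genes that were not called, with reported differences of -0.13 (Acta2) to 0.25 (Sftpc). After quantile normalization Pdgfra was -0.012, Pdgfa -0.0070, Sftpc -0.019, Mki67 -0.0036 and Actb -0.047. With the percentile over detected probes Pdgfra was -0.0016. In the authors' values Pdgfra was -0.011, Pdgfa -0.0080, Sftpc -0.018, Mki67 -0.0033 and Actb -0.058. With array weights Pdgfra was -0.0057 and Mki67 -0.0014. With the muscle covariate Pdgfra was -0.0069, Pdgfa -0.021, Sirt1 -0.036 and Mki67 -0.043. With the secretory covariate Pdgfra was -0.026, Pdgfa -0.017, Kit -0.075, Sirt1 -0.096, Acta2 0.016, Mki67 -0.18 and Polr2a -0.070. Without scrambled mice 1 and 4 Pdgfra was -0.057, Pdgfa -0.0071, Kit -0.0082, Sirt1 -0.11, Eln 0.014 and Mki67 -0.083. With the brightness covariate Sirt1 was -0.011, Polr2a -0.037 and Actb -0.043. With the Y chromosome covariate Mki67 was -0.078. With 1 mouse left out Pdgfra was -0.017 to 0.034, Pdgfa -0.015 to 0.088, Sirt1 -0.017 to 0.10 and Mki67 -0.018 to 0.076. The cause of these changes was not tested.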

Other observations

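Some genes whose antimiR-34a effect differed between oxygen levels were not called in 21% O2 and were chosen after their values were seen. Ankrd37, an ankyrin repeat gene known to respond to low oxygen, had a log2 fold change of -0.18 in 21% O2 and 2.03 in 85% O2 at P5 (difference -2.22, adjusted p = 0.00578 by limma). Nr1d2, a circadian nuclear receptor, had 0.26 and -0.39. Between ages in 21% O2, Crk, an adaptor protein, had 0.37 at P5 and -0.40 at P14, and Abl1, a tyrosine kinase, 0.33 and -0.18. Tsc22d4 ran the other way, with -0.56 and 0.35.

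Over the other 19 gene lists, which had 176 tested members, 88 were higher and 88 lower with antimiR-34a. None was called by limma, 19 had an unadjusted p under 0.05, and the list medians ran from -0.37 for fat genes to 0.40 for thymus genes. The retinoic acid list had 6 higher and 5 lower, with a median of 0.0032. Its members with the largest differences were Cyp26b1, which degrades retinoic acid, with 0.80 (adjusted p = 0.114) in 21% O2 and 1.59 in 85% O2, and Aldh1a2, which makes it, with -0.84 (adjusted p = 0.257) and -0.08.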
